A study of Gallus gallus with 9 samples.

Results

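The comparison described here is that of the apex with the middle of the basilar papilla, the hearing organ of the chicken. It used 6 of the 9 libraries of the series, with 3 from the apex and 3 from the middle. The apex group was the apical piece and the middle group the piece next to it, both from untreated chickens at post-hatch day 1, and the remaining piece, the base, was used for the spread and for the step before this one. A replicate pooled 8 cochleas of 4 chickens, 12 chickens gave the 3 replicates of each region, and libraries of the same number were treated as pairs. Each value is an FPKM, a count of sequenced fragments scaled to the length of the transcripts and to the size of the library, and a gene was compared where its mean FPKM reached 1 in the apex or in the middle. This left 12952 of the 24880 genes of the table. Where the mean of either region was under 1, the gene entered the test through the other region alone. Through the apex alone came *AMBP*, *COL17A1*, *CRABP-I*, *DLK1*, *DNAH1*, *GATA6*, *OTOL1*, *RIBC2*, *RSPH1*, *SLC5A7* and *SPTBN5*, among the genes described below. *ADGRG2* and *VSTM2A* came through the middle alone. For such genes the filter itself favored the direction they show.

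In birds, hair cells are ordered by frequency along the basilar papilla, and those near the apex respond to the lowest sounds. A hair cell opens mechanotransduction channels when its bundle of stereocilia bends, and it passes the signal to ganglion neurons through ribbon synapses, while efferent fibers from the brainstem act on it through nicotinic acetylcholine receptors. Signals such as BMP7 and retinoic acid pattern the bundles along this axis during development. The cochlear duct of birds also carries the lagena at its tip, a vestibular organ covered by otoconia, and the ganglion neurons run beside and into the papilla. Genes of the lagena and of the ganglion are therefore given apart from those of the papilla. In bulk tissue, fewer cells of a type and less RNA per cell cannot be told apart.

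The summed FPKM lay between 660314 and 741975 in the 9 libraries, and each library had 12477 to 12779 genes that reached an FPKM of 1. The FPKM table does not state the number of fragments. The steps between low values gave an approximate relative number, which was 0.913 to 1.47 times that of apex replicate 1, with the highest in middle replicate 3. In a principal component analysis of the 6 libraries, the first component (52.7% of the variance) set both libraries of replicate 2 apart (41.7 in the middle and 18.2 in the apex, against -23.9 to -1.72 in the other 4). The second component (18.3%) separated the apex (1.33 to 15.9) from the middle (-25.4 to -2.83). As deviations from the mean of their region, apex and middle libraries of the same number correlated at 0.464 to 0.662 across genes, which are not independent replicates.

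Between the apex and the middle, 276 genes differed at a Benjamini-Hochberg adjusted p under 0.05 in limma, with the replicate number as a block, and mean FPKM values that differed at least 1.5-fold. Such genes are referred to as called. They were 2.13% of the genes tested. Before adjustment, 2504 of the 12952 genes tested had a limma p under 0.05, against which such counts below are to be read. In the apex, 186 genes (1.44%) were higher and 90 genes (0.695%) were lower than in the middle. Counts of called genes in the function lists below are to be read against these shares. The median log2 difference was 0.76 for the higher genes and -0.86 for the lower genes, against -0.0098 over all genes, and all 276 had the same direction in all 3 pairs. The apex libraries lay above every middle library for 150 of the 186, and below every middle library for 48 of the 90. Among all genes tested, 6.83% had the apex libraries above every middle library and 6.05% had them below. Called genes were selected on this same difference, which makes larger shares among them likely.

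The count depended on the pairing. Without the block, 8 genes were called, 6 higher and 2 lower in the apex, and all 8 were among the 276. They included *KCNJ2*, *CABP2* and *PAPLN*, which were higher in the apex, and *CNTFR* and *IRX2*, which were lower, and the other 3 have no symbol. Leaving out 1 library moved the count to 38 without apex replicate 1, 119 without apex replicate 2 and 114 without apex replicate 3. It was 167 without middle replicate 1, 146 without middle replicate 2 and 82 without middle replicate 3. Over the 9 fits that each left out 1 library, base libraries included, 28 genes were called every time. Those with a symbol were *ALDH1A2*, *BDNF*, *CABP2*, *DCLK3*, *DNASE2B*, *KCNJ2*, *LOXHD1*, *LRRC73*, *MTNR1A*, *ODF2L*, *PAPLN*, *PLS1*, *RIBC2*, *SMAP1*, *SMTNL2* and *TMPRSS7*, higher in the apex, and *CCDC3*, *CNTFR*, *IRX2*, *PCP4* and *RPP25*, lower in the apex. Genes described below that were called in only 1 of the fits include *COL17A1*, *CRABP-I*, *DLK1*, *GATA5*, *ITGBL1*, *PTPRQ*, *RSPO1* and *SLC5A7*. A gene given below without such a count is not the steadier for it. An exact permutation test of 3 libraries against 3 cannot give a two-sided p under 0.1, and 3 pairs cannot give one under 0.25, so single genes were tested only within the fit across all genes.

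The mechanotransduction channel genes *TMC2* and *TMC1* were called in opposite directions. They encode the alternative channel subunits at the tips of stereocilia. *TMC2* had an FPKM of 58.6, 48.2 and 86.9 in the apex, against 15.5, 10.8 and 21.7 in the middle. The groups did not overlap, and the log2 difference was 1.95 (SE 0.34, limma adjusted p = 0.0275). *TMC1* had an FPKM of 1.63, 1.06 and 1.61 in the apex, against 2.85, 1.99 and 4.10 in the middle. It was lower in every apex library than in every middle library, with a log2 difference of -0.69 (SE 0.12, limma adjusted p = 0.0275). Its FPKM, which is per length of transcript, was below that of *TMC2* in all 6 libraries. The adjusted p stayed under 0.05 in 3 of the 9 fits without 1 library for *TMC2*, with 0.153 as the largest, and in 2 of 9 for *TMC1*, with 0.126 as the largest. Of the 13 tested genes of the mechanotransduction complex and tip link, 4 were called higher and 1 lower in the apex, with a median log2 difference of 0.39. The others that rose were *CIB2*, which binds the TMC proteins (0.84), *LOXHD1*, a stereocilia membrane protein (1.10), and *USH1C*, which encodes the scaffold harmonin (0.59). The tip link cadherins *CDH23* and *PCDH15* were not called, with log2 differences of -0.18 and 0.14.

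**Figure D1:**
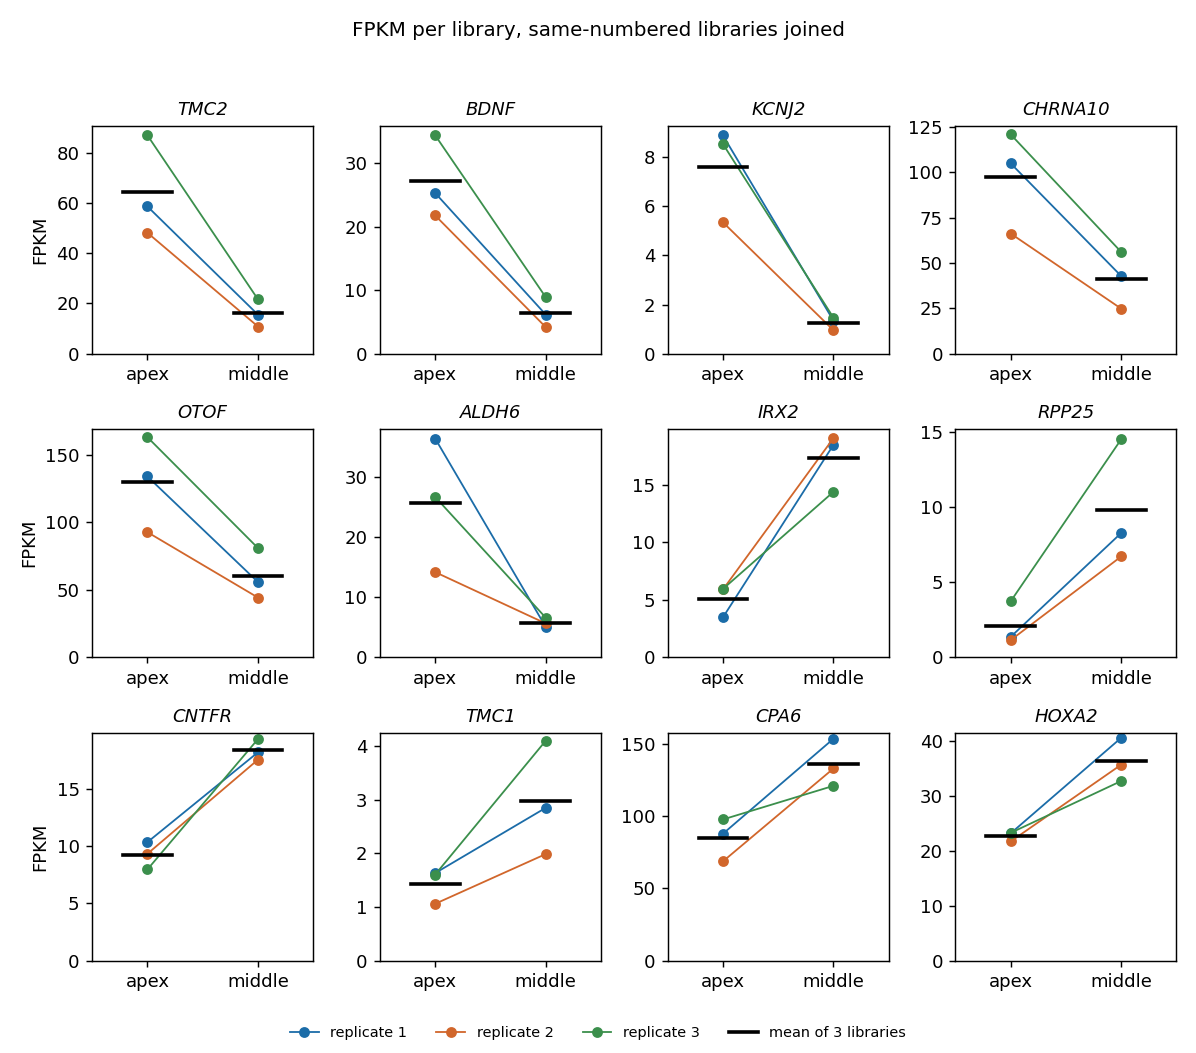
FPKM of 12 genes in each library of the apex and the middle, with lines joining libraries of the same replicate number and a black bar for the mean of 3 libraries, on axes that start at 0. The 6 genes from *TMC2* to *ALDH6* lie higher in every apex library than in every middle library, and the 6 from *IRX2* to *HOXA2* lie lower.

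Among 25 tested genes of stereocilia and the cuticular plate, 8 were called higher and 0 lower, and the median log2 difference was 0.54. Of the 25, 20 were higher in all 3 pairs. The share of all genes tested with such agreement was not counted, here or for the lists below. In the largest list, of 177 tested solute carriers, 38 were higher and 51 lower in all 3 pairs. The actin crosslinker *FSCN2* had an FPKM of 131, 86.3 and 155 in the apex, against 64.4, 39.9 and 90.7 in the middle. Its groups overlapped, because replicate 2 was low and replicate 3 high in both regions, and the apex was higher within each pair (log2 difference 0.96, limma adjusted p = 0.0307). *SPTBN5*, a spectrin, had an FPKM of 1.99, 1.70 and 2.59 in the apex, against 0.607, 0.406 and 0.560 in the middle, without overlap. *PLS1*, the actin bundler fimbrin, had an FPKM of 11.2, 9.50 and 16.8 in the apex, against 5.93, 4.47 and 8.77 in the middle. The apex values of *PLS1* were all above those of the middle, and the log2 difference was 0.87 (limma adjusted p = 0.00461). The others called were *CLIC5*, *ELMOD1*, *ESPN*, *GPSM2* and *PTPRQ*, with log2 differences between 0.58 and 0.73. *ESPN* encodes the actin bundler espin and *GPSM2* a protein that sets the position of the bundle on the cell.

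The marker list of hair cells shared members with the lists above, such as *TMC1* and *LOXHD1*, so its counts are not independent of theirs. Of its 11 tested members, 6 were called higher and 1, *TMC1*, lower in the apex, and 10 were higher in all 3 pairs. Its summed FPKM was 1844 to 2792 in the apex, against 967 to 2248 in the middle, and the median log2 difference was 0.60. Most of that sum was *CALB1*, with 1557 to 2327 FPKM in the apex, against 805 to 1979 FPKM in the middle. *POU4F3*, the transcription factor on which hair cells depend, had an FPKM of 17.5, 9.06 and 16.1 in the apex, against 7.38, 4.42 and 11.6 in the middle. It was higher within each pair, but the groups overlapped and the test did not reach the threshold (log2 difference 0.83, limma adjusted p = 0.0661). *MYO7A*, a motor of the hair bundle, had a log2 difference of 0.39 (limma adjusted p = 0.0803) and *CALB1*, a calcium buffer, one of 0.60 (limma adjusted p = 0.0873). Of 10 supporting cell markers, 0 were called in limma, 4 had an unadjusted p under 0.05, and *SLC1A3* alone had an adjusted p under 0.05 at a lower ratio. *SOX2* had a log2 difference of 0.12, *TECTA* one of 0.47 and *TECTB* one of -0.15, and the summed list was 2345 to 3293 in the apex, against 1996 to 3854 in the middle. Most of the summed list was *TECTB*, with 1740 to 2454 FPKM in the apex, against 1525 to 3142 FPKM in the middle. The part of hair cell number in the higher levels of hair cell genes was not tested.

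Of 22 tested entries of the hair cell ribbon synapse, 4 were called higher in the apex and 2 lower. *OTOF* encodes otoferlin, the calcium sensor for release at the ribbon. Its FPKM was 134, 92.7 and 163 in the apex, against 55.7, 44.2 and 80.9 in the middle, and the apex libraries were all above those of the middle (log2 difference 1.10, limma adjusted p = 0.025). *CABP2*, which limits the inactivation of hair cell calcium channels, had an FPKM of 77.9, 57.6 and 83.5 in the apex, against 34.4, 31.6 and 32.6 in the middle. The middle values of *CABP2* lay close together, and the log2 difference was 1.11 (SE 0.086, limma adjusted p = 0.00352). *SLC17A8*, the vesicular glutamate transporter of hair cells, rose by 0.75. *NRXN3*, a presynaptic adhesion protein, stands on 2 entries of the table, of which 1 rose by 0.72 and the other had a log2 difference of 0.55 (limma adjusted p = 0.124). The 2 lower ones were *SLC17A6* and *SNAP25*, which were high in replicate 2 of both regions and are described with the ganglion neuron genes. Ribbon and active zone genes such as *CTBP2* (-0.08), *BSN* (-0.14) and *RIMS2* (0.05) were not called.

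Of 6 tested genes of the efferent cholinergic synapse, 2 were called higher in the apex and 0 lower. *CHRNA10* and *CHRNA9* encode the nicotinic subunits through which efferent fibers act on hair cells. The FPKM of *CHRNA10* was 105, 66.2 and 121 in the apex, against 42.8, 24.8 and 56.1 in the middle, and the groups did not overlap. Its log2 difference was 1.25 (limma adjusted p = 0.00912). *CHRNA9* had an FPKM of 8.63, 7.90 and 10.4 in the apex, against 9.01, 5.85 and 12.0 in the middle. The values of *CHRNA9* overlapped in full, with a log2 difference of 0.05 (SE 0.14, limma adjusted p = 0.909), and whether the 2 subunits differ in their change was not tested. *SLC5A7*, the choline transporter of cholinergic terminals, was called higher at a low level, with 1.37, 0.567 and 1.36 FPKM in the apex, against 0.171, 0 and 0.0653 FPKM in the middle. It is listed at 0 in middle replicate 2. Its mean FPKM in the middle was 0.0786, so it entered the test through the apex alone. *SLC6A4*, the serotonin transporter, had an FPKM of 61.0, 58.2 and 82.1 in the apex, against 25.2, 17.7 and 32.9 in the middle. All apex libraries lay above all middle libraries (log2 difference 1.40, limma adjusted p = 0.0175), and it was the only one called among 15 genes of serotonin and monoamine handling.

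Of 47 tested potassium channel genes, 3 were called higher and 4 lower in the apex. *KCNJ2*, an inward rectifier that sets the resting potential, had an FPKM of 8.88, 5.35 and 8.53 in the apex, against 1.34, 0.954 and 1.46 in the middle. The lowest apex value was above the highest middle value by a wide margin, and the log2 difference was 1.91 (SE 0.15, limma adjusted p = 0.00352). *KCNF1* (1.47) and *KCNG4* (0.94), modulatory subunits that form no channel alone, were higher as well. *KCNA3*, a delayed rectifier, had an FPKM of 4.96, 4.07 and 3.47 in the apex, against 9.78, 7.59 and 5.29 in the middle, and fell by 0.70 on the log2 scale. Of the others that were lower, *KCNS1* (-1.96), a modulatory subunit, and *KCNC1* (-1.31), a fast delayed rectifier, were high in replicate 2 of both regions, as the neuron genes were. *SCN3B*, a sodium channel beta subunit, was the only one called of 41 tested calcium, sodium, TRP and HCN channel genes, and it was higher in the apex by 0.62. This was 2.44% of that list, near the 1.44% of all genes tested. In the potassium channel list the median log2 difference was -0.05.

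Genes of motile cilia and axonemes formed the list with the most called members by number. By share they ranked lower, with 18.75% called higher, against 32% in the stereocilia list and 54.5% in the hair cell list. Of 48 tested genes of motile cilia and axonemes, 9 were called higher and 0 lower in the apex, 30 were higher in all 3 pairs, and the median log2 difference was 0.25. They were *CFAP52*, *DNAH1*, *DNAI1*, *DNAI2*, *ODF2L*, *RIBC2*, *RSPH1*, *RSPH9* and *SPAG6*, and they include genes of dynein chains and of radial spoke proteins. *RIBC2*, a protein inside the doublet microtubules, had an FPKM of 5.56, 2.35 and 4.87 in the apex, against 0.438, 0.248 and 0.452 in the middle. The apex libraries lay above every middle library (log2 difference 1.88, limma adjusted p = 0.00461). *ODF2L* had an FPKM of 14.0, 11.6 and 17.0 in the apex, against 5.91, 6.11 and 9.43 in the middle, also without overlap, while the other 7 had a mean FPKM under 6 in the apex. The mean FPKM in the middle was under 1 for *RIBC2* (0.379), *DNAH1* (0.983) and *RSPH1* (0.747), which entered the test through the apex alone. *RIBC2* and *ODF2L* were called in each of the 9 fits without 1 library. *CFAP52* was called in 4 of them, *DNAH1* in 3, *DNAI1* and *RSPH9* in 2, *RSPH1* and *SPAG6* in 1 and *DNAI2* in 0. Of 36 genes of intraflagellar transport and the primary cilium, 0 were called in limma and 6 had an unadjusted p under 0.05, with a median log2 difference of 0.05.

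**Figure D2:**
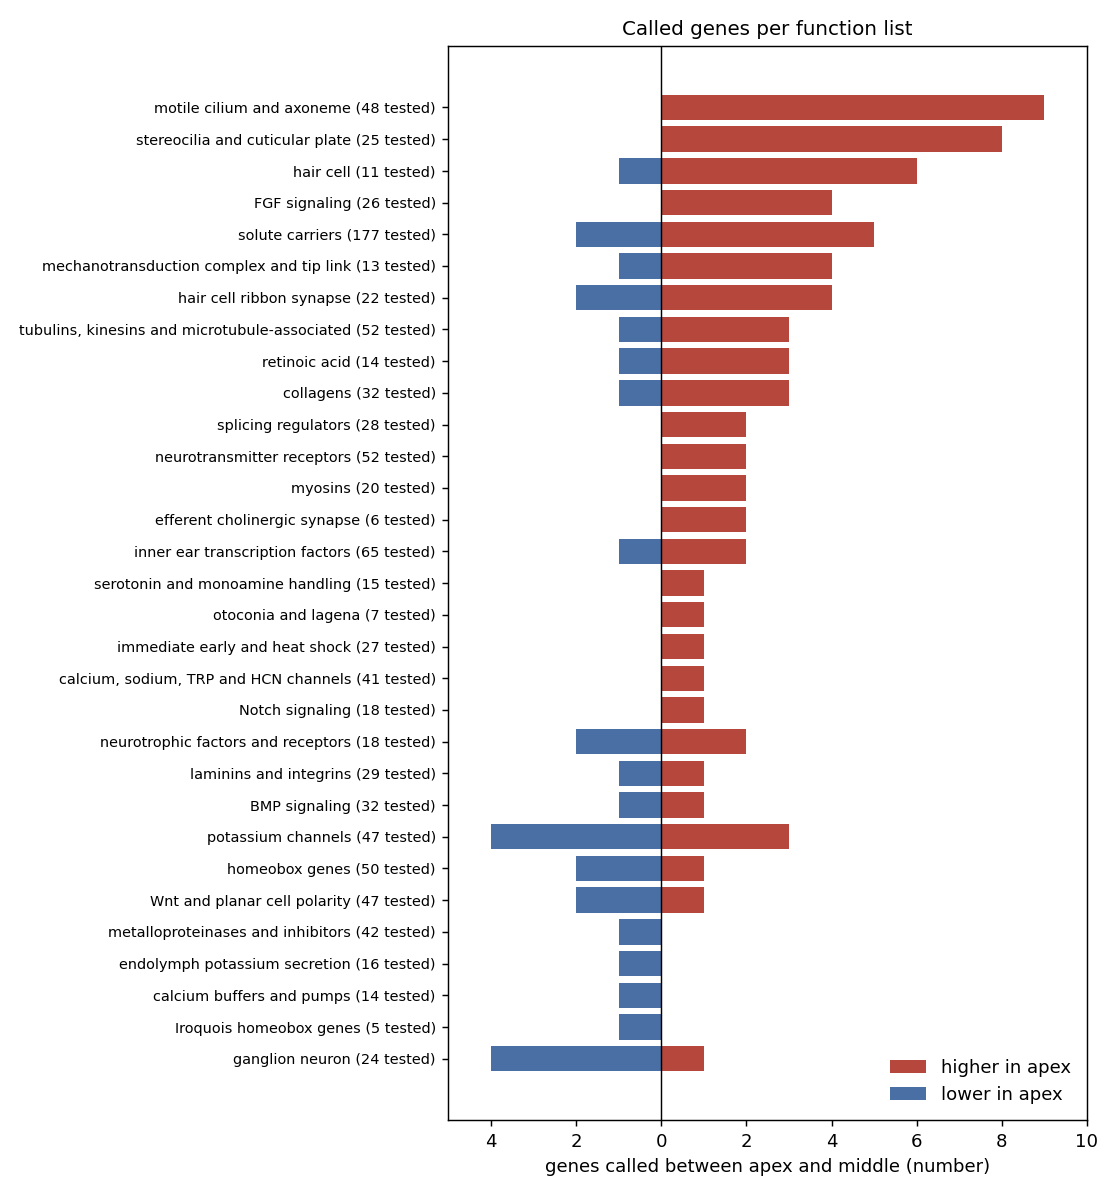
Number of called genes in each of the 31 function lists with a called member, with genes higher in the apex to the right and genes lower in the apex to the left. The numbers in parentheses are the genes tested, and a gene may stand in several lists. The list of motile cilia and axonemes has 9 genes to the right and 0 to the left.

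Genes of growth factor pathways followed. In FGF signaling, 4 of 26 tested genes were called higher and 0 lower, and they were a ligand, a carrier, a receptor and a target. *FGF3*, the ligand, had an FPKM of 21.2, 14.1 and 26.9 in the apex, against 8.92, 6.40 and 12.2 in the middle. The ranges did not meet (log2 difference 1.09, limma adjusted p = 0.0273), and the adjusted p was under 0.05 in 3 of the 9 fits without 1 library, with 0.15 as the largest. *FGFBP1*, which releases FGFs from the matrix, was higher by 0.76 and *FGFRL1*, a receptor without a kinase domain, by 0.90. *ETV4*, an Ets factor induced by FGF signals, had an FPKM of 37.6, 30.0 and 47.0 in the apex, against 14.2, 13.6 and 18.6 in the middle, and its log2 difference was 1.24. The kinase receptors *FGFR1* (-0.41) and *FGFR2* (-0.35) lay lower in every apex library at adjusted p of 0.0329 and 0.0242, but did not reach a ratio of 1.5.

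Retinoic acid is made by retinaldehyde dehydrogenases and degraded by CYP26 enzymes. Of 14 tested genes, 3 were called higher in the apex and 1 lower. *ALDH6*, listed in RefSeq under *ALDH1A3*, had an FPKM of 36.5, 14.2 and 26.7 in the apex, against 5.04, 5.62 and 6.58 in the middle. The apex libraries differed among themselves by more than the whole range of the middle, and all lay above it (log2 difference 1.90, SE 0.33, limma adjusted p = 0.0266). The limma adjusted p was under 0.05 in 3 of the 9 fits without 1 library, with 0.113 as the largest. *ALDH1A2*, the other synthetic enzyme, had an FPKM of 87.9, 81.4 and 68.5 in the apex, against 51.1, 52.4 and 45.6 in the middle. It differed by 0.66 on the log2 scale (SE 0.063, limma adjusted p = 0.00461). *CRABP-I*, a binding protein in the cytoplasm, rose by 0.66 at 1.71, 2.26 and 1.02 FPKM in the apex, against 0.657, 0.907 and 0.438 FPKM in the middle. Its limma adjusted p was under 0.05 in 1 of the 9 fits without 1 library, with 0.215 as the largest. *CYP26B1*, the degrading enzyme, had an FPKM of 31.1, 23.1 and 24.8 in the apex, against 56.7, 32.1 and 43.1 in the middle. It was lower in every apex library than in every middle library (log2 difference -0.69, limma adjusted p = 0.0132). The receptors *RARA* (0.16), *RARB* (-0.05) and *RXRA* (0.03) were not called.

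In BMP signaling, 1 of 32 tested genes was called higher and 1 lower, and the median was -0.04. Each was 3.125% of the list, against 1.44% higher and 0.695% lower among all genes tested. With 1 gene in each direction, the calls do not set the list apart. *BMP4*, a ligand, had an FPKM of 85.9, 64.8 and 87.9 in the apex, against 55.9, 41.7 and 61.0 in the middle. *BMP3*, a ligand that opposes other BMPs, had an FPKM of 7.88, 10.1 and 8.64 in the apex, against 17.9, 17.8 and 13.3 in the middle. Neither of them overlapped between the regions, and the log2 differences were 0.59 and -0.81. *BMP7* was higher within each pair, with 18.8, 13.2 and 19.8 FPKM in the apex, against 12.5, 7.74 and 14.3 FPKM in the middle, but its groups overlapped and its limma adjusted p was 0.0702. *BMPR1B*, a type I receptor, lay lower in every apex library than in every middle library (log2 difference -0.54, limma adjusted p = 0.0064) at a ratio under the limit. In the Notch list, *DLK1*, a noncanonical ligand, was the 1 called of 18, and *DNER*, which was higher in every apex library (229, 231 and 269 FPKM, against 150, 171 and 218 FPKM in the middle), had a limma adjusted p of 0.0287 at a ratio of 1.35. In the Wnt list, 1 of 47 was higher, the receptor *FZD4* (0.69), and 2 were lower, *RSPO1* (-0.73) and *RSPO3* (-0.62), secreted enhancers of Wnt signals. These were 2.13% and 4.26% of the list, against 1.44% and 0.695% of all genes tested. So few calls do not set the list apart from the rest.

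Among 18 tested neurotrophic factors and receptors, 2 were higher and 2 lower in the apex. *BDNF*, a neurotrophin that supports ganglion neurons, had an FPKM of 25.3, 21.8 and 34.4 in the apex, against 6.16, 4.19 and 8.91 in the middle. The difference of 1.95 on the log2 scale (SE 0.18, limma adjusted p = 0.00461) was called in each of the 9 fits without 1 library. *NTRK3*, the receptor of neurotrophin 3, was higher by 0.57. *CNTFR*, the receptor of ciliary neurotrophic factor, had an FPKM of 10.4, 9.34 and 7.97 in the apex, against 18.2, 17.6 and 19.4 in the middle. It was lower in every apex library (log2 difference -0.93, limma adjusted p = 0.00461). *RET*, the signaling receptor of GDNF family ligands, fell by 0.56 on the log2 scale.

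Transcription factors of position and of cell type were among the called genes. *IRX2*, an Iroquois homeobox gene, had an FPKM of 3.46, 5.88 and 5.93 in the apex, against 18.5, 19.0 and 14.4 in the middle. Its log2 difference was -1.61 (SE 0.17, limma adjusted p = 0.006), and the other 4 tested Iroquois genes were not called, with *IRX1* at -0.31. *HOXA2*, a patterning gene of the hindbrain and the head, had an FPKM of 23.1, 21.7 and 23.2 in the apex, against 40.5, 35.6 and 32.7 in the middle, and fell by 0.65. *GFI1* (0.82) and *LHX3* (0.79), factors of hair cell differentiation, were higher in the apex within each pair, with overlapping groups. *GATA6* (0.68) and *GATA5* (0.70) were higher at FPKM values of 3.49 or less. In all, 2 of 65 tested inner ear transcription factors were higher (3.08%) and 1 was lower (1.54%), against 1.44% and 0.695% of all genes tested. With so few called genes, the calls alone do not set the class apart from the rest. At any ratio, 12 of the 65 had a limma adjusted p under 0.05, against 575 of all 12952 genes tested. An unadjusted p under 0.05 was reached by 37 of the 65, against 2504 of all genes tested. Both shares were larger in this list. The list was chosen with earlier results of these data known, so the shares are no independent support for a change of the class.

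Among matrix genes, 3 of 32 collagens were called higher and 1 lower. *COL14A1*, a collagen on the surface of fibrils, had an FPKM of 121, 120 and 156 in the apex, against 59.5, 75.0 and 94.4 in the middle. *COL22A1* (0.79) and *COL17A1* (0.79) were higher as well and *COL20A1* was lower (-0.67). For none of these 4 did the ranges of apex and middle overlap. *ITGB6*, an integrin of epithelia, had an FPKM of 17.1, 14.7 and 17.7 in the apex, against 5.61, 7.21 and 6.35 in the middle, and rose by 1.25. *ITGBL1*, an integrin-like secreted protein, fell by 0.93. The matrix genes with the highest levels were lower as sums without a call, with collagens at 11028 to 13744 FPKM in the apex, against 13182 to 16926 FPKM in the middle. Of 9 tested tectorial membrane genes and 12 small leucine-rich proteoglycans, 0 were called in limma. At a smaller ratio, 3 tectorial membrane genes and 1 proteoglycan had an adjusted p under 0.05. An unadjusted p under 0.05 was reached by 7 and 6 of them, larger shares than among all genes tested. These lists were also chosen with earlier results of these data known.

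The remaining genes with the largest positive differences were of varied function. *TMCC2*, a membrane protein of the endoplasmic reticulum, had an FPKM of 211, 134 and 250 in the apex, against 43.5, 42.2 and 46.0 in the middle. Its log2 difference was 2.10 (limma adjusted p = 0.0103), the second largest among genes with a symbol. *GCHFR*, a regulator of tetrahydrobiopterin synthesis, had an FPKM of 41.7, 25.1 and 37.7 in the apex, against 18.7, 9.25 and 12.2 in the middle. *AGR2*, a protein disulfide isomerase, had an FPKM of 12.5, 17.6 and 16.6 in the apex, against 7.30, 3.69 and 5.21 in the middle, and *AMBP*, a secreted precursor protein, had 2.5, 2.2 and 3.79 FPKM in the apex, against 0.719, 0.101 and 0.532 FPKM in the middle. None of the 3 overlapped, and their log2 differences were 1.34, 1.40 and 1.40. On the lower side, *RPP25*, a subunit of ribonuclease P, had an FPKM of 1.35, 1.13 and 3.72 in the apex, against 8.26, 6.70 and 14.5 in the middle (log2 difference -1.85, limma adjusted p = 0.00352). *CPA6*, a carboxypeptidase, had an FPKM of 87.9, 68.8 and 97.8 in the apex, against 154, 133 and 121 in the middle, and fell by 0.68. *AQP5*, a water channel, was lower within each pair with overlapping groups (-1.04). *VSTM2A* had an FPKM of 0.144, 1.13 and 0.473 in the apex, against 1.15, 8.91 and 6.08 in the middle, with no overlap and a log2 difference of -1.80. Its mean FPKM in the apex was 0.583, so it entered the test through the middle alone. Replicate 2 was its highest library in both regions and in the base (1.33, 6.82 and 1.91 FPKM). It is not among the genes counted below as high in replicate 2.

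Genes of the ganglion neurons, and genes that were high in replicate 2 as these were, gave most of the largest negative differences. *NEFH*, the heavy neurofilament subunit, had an FPKM of 2.07, 105 and 2.47 in the apex, against 17.1, 294 and 58.7 in the middle. The apex was lower in each pair, but apex replicate 2 was above middle replicates 1 and 3 (log2 difference -2.71, limma adjusted p = 0.0331). *SNAP25*, a fusion protein of synaptic vesicles, had an FPKM of 2.29, 85.9 and 2.77 in the apex, against 13.5, 184 and 42.2 in the middle. *PVALB*, the calcium buffer parvalbumin, had an FPKM of 10.8, 261 and 9.69 in the apex, against 48.7, 519 and 138 in the middle. Both had log2 differences of -2.25, and their groups overlapped in the same way. *RGS8* (-2.32), *MDGA1* (-2.31), *SLC17A6* (-2.17), *SYT2* (-2.13), *ADGRG2* (-2.04), *KCNS1* (-1.96) and *MAFA* (-1.93) were among the 12 largest negative differences too, and in each of them the 3 pairs pointed the same way and the groups overlapped. *SLC17A6*, which was not in the ganglion neuron list, is a vesicular glutamate transporter of neurons and *SYT2* a fast calcium sensor of vesicle release.

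Across the ganglion neuron list, 4 of 24 tested genes were called lower (*NEFH*, *SNAP25*, *TUBB3* and *THY1*) and 1 higher (*NTRK3*), with 15 lower in all 3 pairs and a median log2 difference of -0.47. The summed FPKM of the list was 445, 2297 and 554 in the apex, against 639, 4499 and 1236 in the middle. Other members pointed down within pairs without passing the test, such as *STMN2* (-2.44, limma adjusted p = 0.0564) and *NEFM* (-1.08, limma adjusted p = 0.105). The adjusted p was under 0.05 in 3 of the 9 fits without 1 library for *NEFH*, with 0.177 as the largest, and in 2 of 9 for *SNAP25*, with 0.212 as the largest. A limit chosen after these values were seen counted genes whose replicate 2 was at least 3 times the mean of replicates 1 and 3 in both regions. It took 21 of the 90 lower genes, 0 of the 186 higher genes and 168 genes (1.3%) of all tested. In those 21, replicate 2 was 3.09 to 58.1 times the others in the apex, 3.2 to 10.4 times in the middle and 3.21 to 12.2 times in the base. None of them separated apex and middle without overlap, which the limit on replicate 2 itself makes likely. The 69 lower genes outside this limit thus included all 48 that did not overlap. The part of the number of neurons left on each piece in the lower values was not tested. Of 18 Schwann cell and myelin genes, 0 were called in limma and 1 had an unadjusted p under 0.05, and their median log2 difference was 0.06. Their summed FPKM was 3328 to 4667 in the apex, against 3109 to 4771 in the middle.

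Lagena genes were represented by few measured members. *OTOL1*, which encodes the matrix protein otolin of otoconia, had the largest positive difference of all genes with a symbol. Its FPKM was 24.6, 6.85 and 6.97 in the apex, against 1.17, 0.467 and 1.05 in the middle, and the log2 difference was 2.64 (SE 0.31, limma adjusted p = 0.0087). Its mean FPKM in the middle was 0.898, so it entered the test through the apex alone. Without apex replicate 1 the gene was not called (limma adjusted p = 0.0538). This library stood above the other apex libraries, and *OTOP1*, a proton channel needed for otoconia, did the same with 8.06, 2.11 and 2.49 FPKM in the apex, against 1.88, 1.70 and 2.62 FPKM in the middle. *OTOP1* was not called (log2 difference 0.60, limma adjusted p = 0.414). Of 7 tested genes of otoconia and the lagena, *OTOL1* was the 1 called. *CA2*, *CA8*, *CYBA*, *SLC26A4* and *SPARC*, some of which many tissues express, had log2 differences between -0.35 and 0.32. The part of lagena tissue on the apical piece in other apex values was not tested. Without the members of the ganglion neuron, Schwann cell and lagena lists, 270 of the 276 genes remained, 184 higher and 86 lower. These 270 still held 18 of the 21 called genes that were high in replicate 2, such as *PVALB*, *SLC17A6*, *SYT2* and *KCNC1*, and without them 252 remained, 184 higher and 68 lower.

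**Figure D3:**
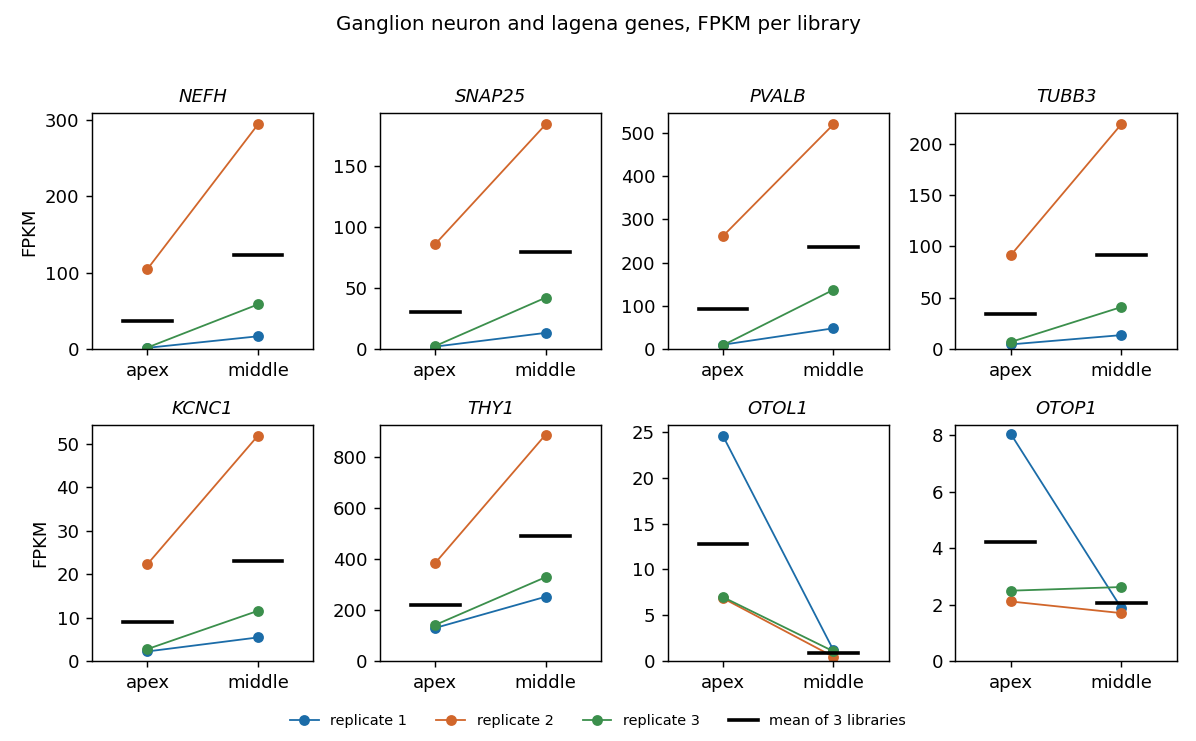
FPKM per library of ganglion neuron genes and genes high in replicate 2 as these were (*NEFH*, *SNAP25*, *PVALB*, *TUBB3*, *KCNC1*, *THY1*) and of the lagena genes *OTOL1* and *OTOP1* in the apex and the middle, with lines joining libraries of the same number and a black bar for the mean. In the first 6 panels the line of replicate 2 lies above the others in both regions, and in *OTOL1* and *OTOP1* the apex library of replicate 1 lies above the other 2.

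Of 18 macrophage, 33 cell cycle, 22 innate immunity and 5 red blood cell genes tested, 0 were called in limma. At an unadjusted p under 0.05 there were 1, 6, 5 and 1 of them. Among the red blood cell genes, *HBAA* was at 5551 FPKM in apex replicate 3, against 518 to 2036 FPKM in the middle and 690 and 1537 FPKM in the other apex libraries. Of 8 cartilage genes, 0 were called in limma, 2 had an adjusted p under 0.05 at a smaller ratio and 4 an unadjusted p under 0.05, with summed levels of 8928 to 11341 FPKM in the apex, against 11522 to 15234 FPKM in the middle. Of 59 genes of the respiratory chain, 65 of ribosomal proteins and 64 of axon guidance, 0 were called in limma as well, and 4, 3 and 24 of them had an unadjusted p under 0.05. Among all 12952 genes tested, 2504 had such a p. The share in axon guidance was above that of all genes, and those of the respiratory chain and ribosomal proteins were below it. As the lists were chosen with earlier results of these data known, these shares are descriptive.

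The step from middle to apex was then set against the step from base to middle within the same fit. The 2 steps share the middle libraries, so a high or low middle moves them in opposite directions. The step difference passed a limma adjusted p under 0.05 for 267 genes (2.06%), with 52 positive and 215 negative, and for 1 gene without the block. When middle replicate 3 was left out, 0 genes passed, and 1560 had an unadjusted p under 0.05 in limma, against 2572 with all libraries. When apex replicate 1 was left out, 22 genes passed. Of the 276 genes called between apex and middle, 51 also passed, 18 higher and 33 lower in the apex. Some of the 18 rose more over the first step than over the second, and their step differences were negative. Among them were *SCN3B* (2.02, then 0.62, step difference -1.40) and *GIPC3* (1.57, then 0.70, step difference -0.87). Over all called genes, the fitted difference between middle and base was above 0 for 156 of the 186 that were higher in the apex, and below 0 for 40 of the 90 that were lower. Among all genes tested it was above 0 for 49.4% and below 0 for 50.6%.

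*KCNJ2* was level over the first step and high in the apex alone, with 0.961, 1.11 and 1.69 FPKM in the base. The step difference was 1.90 (SE 0.25, limma adjusted p = 0.0229). *RIBC2* had 0.344, 0.116 and 0.618 FPKM in the base and a step difference of 1.84 (limma adjusted p = 0.0366). *CABP2* and *PAPLN*, a matrix protein related to proteoglycan-cleaving enzymes, also had first steps near 0, of 0.05 each, and step differences of 1.06 and 0.85. Another group was lowest in the middle. *FZD4* had an FPKM of 16.2, 18.9 and 14.4 in the apex, 9.52, 10.7 and 9.05 in the middle and 15.6, 16.8 and 18.5 in the base, so that apex and base overlapped above every middle library. *LCAT*, which esterifies cholesterol, had 239, 214 and 256 FPKM in the apex, 139, 107 and 118 FPKM in the middle and 160, 162 and 202 FPKM in the base. In *ALDH1A2*, *GCHFR*, *SERPIND1*, a thrombin inhibitor, and *THBS2*, a matrix glycoprotein, the mean was also lowest in the middle, with step differences between 0.78 and 1.69.

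Among the 33 lower genes with a step difference, 32 had a positive first step and were thus highest in the middle, and 14 of the 33 were among those high in replicate 2. The remaining ones included *CYP26B1*, with 23.7, 14.3 and 21.6 FPKM in the base, *RET* with 9.46, 8.72 and 15.4 FPKM and *MYH11*, a smooth muscle myosin, with 12.4, 11.8 and 22.1 FPKM. *MYH11* had 16.8, 16.1 and 20.9 FPKM in the apex, against 43.3, 27.9 and 53.9 FPKM in the middle. For these 3 genes every middle library lay above every apex and every base library, and the step differences were -1.79, -1.53 and -2.52. *GADL1*, an amino acid decarboxylase, had 54.8, 49.3 and 83.8 FPKM in the apex, against 97, 71 and 147 FPKM in the middle, with a step difference of -1.75. Other genes with a large change over the second step, such as *TMC2*, *BDNF*, *CHRNA10* and *IRX2*, changed the same way over the first, and their step differences did not pass the test (limma adjusted p between 0.174 and 0.642). Over the 3 regions, 59 of the 186 higher genes and 18 of the 90 lower genes were ordered without any overlap of libraries between neighboring regions. Among all genes tested, 1.88% and 2.65% were so ordered. The calls had already selected for the second step, so larger shares than among all genes were likely in advance. The 59 and 18 are part of the 150 higher and 48 lower genes without overlap of apex and middle. Among all genes tested with that separation, 243 of 884 and 343 of 783 were so ordered.

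**Figure D4:**
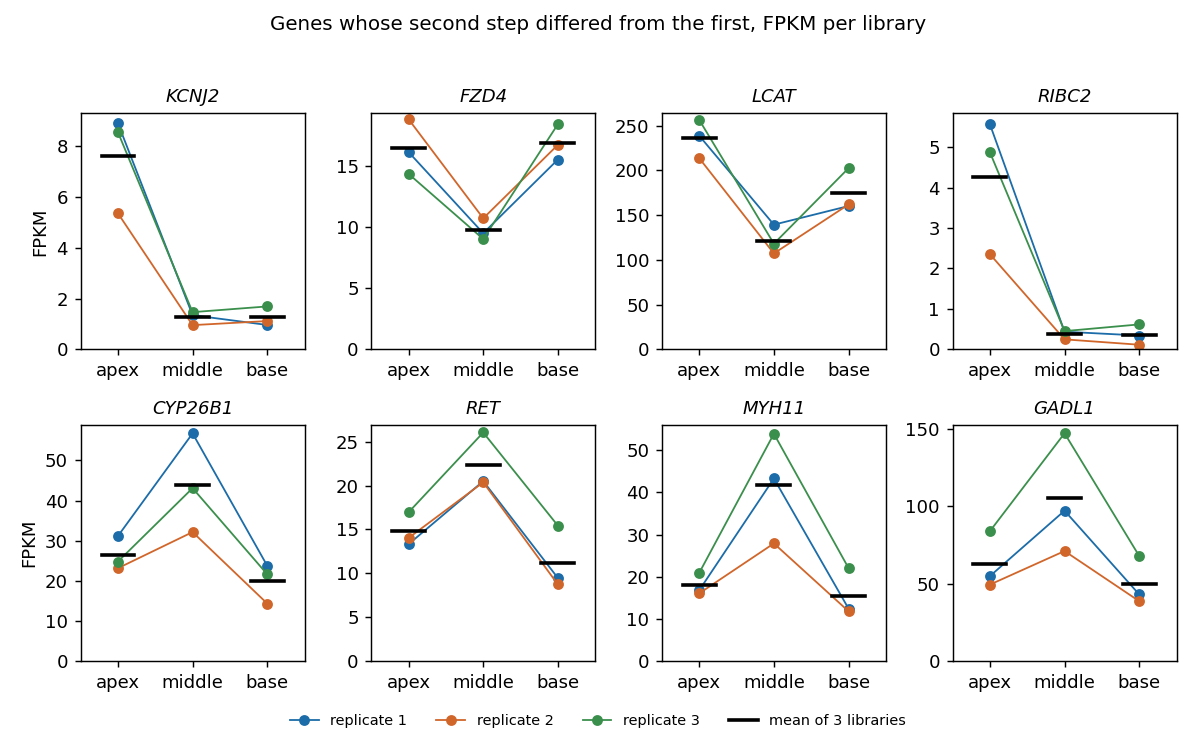
FPKM per library of 8 genes with a step difference in the apex, the middle and the base, with lines joining libraries of the same number and a black bar for the mean. *KCNJ2* and *RIBC2* are high in the apex alone, *FZD4* and *LCAT* are lowest in the middle, and the 4 genes of the lower row are highest in the middle.

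In galGal5, as the table gives it, *TMC2* lies at chr2:44470401-44496991, *BDNF* at chr5:3715526-3747234, *KCNJ2* at chr18:8259054-8265799, *IRX2* at chr2:86903335-86907419 and *OTOL1* at chr9:22025350-22028310. These intervals are whole genes, and the FPKM of each is a sum over its transcripts, so that no exon or isoform was compared. Of the 276 called genes, 43 share their locus entry with another gene of the table, and their values are uncertain. They include *ALDH1A2*, *COL14A1*, *CRABP-I*, *DNAH1*, *ELMOD1*, *FGFRL1*, *GPSM2*, *LOXHD1*, *NRXN3*, *SERPIND1*, *SLC17A6*, *SYT2*, *THY1* and *VSTM2A*, which are described above.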

How the data were processed

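RNA was taken from base, middle and apex pieces of the basilar papilla, enriched with oligo-dT and sequenced as 101-bp paired-end reads. Per the labels and the methods, STAR 2.5.4b placed the reads on galGal5 and Cuffdiff 2.2.1 turned them into FPKM, and the authors deposited these values for every library without pooling replicates. The scaling between libraries is not given in the sources used here, and whether the counting used strand is not either. FPKM is not a count, so no count model was used, and the FPKM values carry no counting interval.

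The values were used as log2(FPKM + 1). They were modelled in R 4.3.3 by limma 3.58.1, over all 9 libraries, with region and replicate number as factors and an intensity trend (4 residual degrees of freedom). Fold changes on this scale understate the change of low genes. Tests were two-sided and adjusted by Benjamini and Hochberg over all 12952 genes. The contrast was apex minus middle, and a second contrast was this step minus the step from base to middle. The block was used because libraries were taken as pairs by the replicate number in their titles, which state no pairing. The methods give 12 chickens and 4 per replicate, which implies shared chickens in each number without stating it. Deviations from the region means correlated at 0.382 to 0.662 in the 9 pairs of the same number and at -0.523 to 0.151 in others. The authors named no block, and the fit without it is given beside the result. With the block in the fit, the p-values rest on how much the differences between regions varied from pool to pool. Differences shared by all pieces of a pool are removed.

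The members and the function lists were chosen with earlier results of these data known. Lists hold gene symbols, with 18 entries matched by a RefSeq synonym, and 86 called genes stand in at least 1 of 50 lists. Genes named were the 12 largest differences in each direction among called genes with a symbol that agreed in all 3 pairs, called members of the lists, and a set of genes of this axis. Others, such as *MYH11*, *GADL1*, *LCAT*, *PAPLN* and those named for a smaller change, were chosen after their values were seen. *KCNMA1*, *OC90* and *MBP* were not matched to a symbol and were not analysed here, and 65 called genes have no symbol. Some genes that the rule gives are not reported here. Sequences were not used here. Alternatives were another pseudocount (0.1), other filters, quantile and median-ratio scaling, no intensity trend, no block or a random one, other ratio limits, 6 libraries in place of 9, and fits without each library or replicate number.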

Additional observations from a re-analysis of the deposited data

How the results depend on the processing

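Of 98 genes that were called and named by rule, none changed direction in any fit that tested them. All called genes had the same direction in all 3 pairs, so refits of the same libraries could hardly reverse it. Of the 98, 4 kept the call without the replicate block, while 65 kept it with the block as a random effect. Without the block, 8 genes were called (6 higher and 2 lower in the apex), and 1 gene passed for the step difference. With the 6 apex and middle libraries alone and no block, an alternative chosen after seeing the data, limma called 0 genes, 0 higher and 0 lower, while 994 had an unadjusted p under 0.05. With the block as a random effect, 53 genes were lower and 124 passed for the step difference. With no filter on low values, 58 genes were lower and 49 passed for the step difference, and without the intensity trend 138 passed for it. With no ratio limit, 575 genes were called (304 higher, 271 lower), and at a ratio of 2 there were 122 (76 higher, 46 lower). Without 1 library or 1 replicate number, the counts ran from 2 to 332 for all calls, 0 to 203 for higher genes, 2 to 129 for lower genes and 0 to 237 for the step difference. The lowest counts came without replicate 1 as a whole, except for the step difference, which had 0 without middle replicate 3 and without replicate 3 (1560 and 1337 at an unadjusted p under 0.05 in limma). The highest came without base replicate 2, and the fits without a base library were chosen after seeing the data. Of the 276 genes, 275 kept their sign in all 9 fits without 1 library, which their agreement in all 3 pairs makes likely, and 28 kept the call. *SLC5A7* was tested in only 7 of these fits and did not change sign there, with log2 differences of 0.861 to 1.098. The other alternatives left the 4 counts within 1.5 times the reported ones. With 3 replicates per region and no fragment numbers in the table, a change that was not called is not shown to be absent.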
